A study of Mus musculus with 8 samples.

Results

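C/EBPα binding that recurred in unmutated mouse bone marrow progenitors is described here. The study mapped C/EBPα by CUT&RUN, in which an antibody tethers a nuclease that releases the DNA beside a bound protein, in cells sorted as Lin- KIT hi-int FLT3+. The group used is wild type (WT, unmutated at the Zeb2 -165-kb enhancer that the study altered in its other groups), with 2 libraries, replicate 1 from batch 1 and replicate 2 from batch 2. Both received 3 µL of anti-C/EBPα antibody, 30 minutes of digestion and 14 PCR cycles. The labels give no strain or age and do not say whether the batches used separate animals. The 2 IgG libraries of WT cells were not analysed here, so no level was measured in a control. Whether IgG signal entered the background of the deposited peak lists is not given in the sources used here. The replicate 1 list held 82080 peaks and the replicate 2 list 56940. Peaks that overlapped by at least 1 bp were joined into 106180 regions, and the 31664 regions with a peak in both libraries (29.8%) are the reproducible regions described below.

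C/EBPα, encoded by Cebpa, is a basic leucine zipper factor that binds DNA as a dimer, and each partner reads one side of a short palindrome. In bone marrow it is known for driving multipotent progenitors towards granulocytes and monocytes, where it acts together with PU.1 (Spi1). It can also pair with factors of the ATF group, and such mixed pairs read a composite site that joins a C/EBP side to an ATF side. The sorted gate takes its names from the receptors KIT and FLT3, and a binding profile gives no RNA level that could test them.

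The letters that such dimers read are shown first at strongly bound promoters, since the promoters with the strongest binding held them more often. Each stretch is 100 bp long and lies within the 250 bp before the annotated start of a gene, 5′ to 3′ on the gene's strand, from RefSeq (GRCm38.p6, the same assembly as mm10). Capitals mark TTGCNNAA, the C/EBP palindrome with 2 free bases, or TGATGCAA, the C/EBP and ATF composite, each on either strand. The first 6 are the best-ranked bound promoters that hold either motif before the start. Spty2d1, which ranked ahead of Ccdc77 but holds TTGCNNAA only after the start, is not shown. Bound promoters with neither motif were also passed over, among them Ccdc180 and Ugt1a6a, which both ranked ahead of Pycr1. The other 4 stretches come from the gene lists used below.
Pycr1: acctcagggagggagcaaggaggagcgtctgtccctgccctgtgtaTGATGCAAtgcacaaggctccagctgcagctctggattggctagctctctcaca
Irf2: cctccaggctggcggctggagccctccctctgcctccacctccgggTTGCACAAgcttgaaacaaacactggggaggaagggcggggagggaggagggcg
Pdss1: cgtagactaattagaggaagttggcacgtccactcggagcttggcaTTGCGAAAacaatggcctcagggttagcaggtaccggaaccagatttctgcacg
Herpud1: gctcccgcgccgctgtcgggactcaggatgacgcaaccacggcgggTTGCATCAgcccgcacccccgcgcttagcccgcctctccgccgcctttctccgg
Adcy7: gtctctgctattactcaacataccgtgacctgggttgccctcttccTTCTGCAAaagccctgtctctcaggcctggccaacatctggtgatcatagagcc
Ccdc77: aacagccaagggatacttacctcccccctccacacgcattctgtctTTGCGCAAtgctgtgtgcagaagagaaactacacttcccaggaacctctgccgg
Clec12a: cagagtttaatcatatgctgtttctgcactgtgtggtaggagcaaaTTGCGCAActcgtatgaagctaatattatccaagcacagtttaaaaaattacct
Mmp8: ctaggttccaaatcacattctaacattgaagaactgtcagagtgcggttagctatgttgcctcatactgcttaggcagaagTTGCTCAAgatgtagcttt
Fcgr3: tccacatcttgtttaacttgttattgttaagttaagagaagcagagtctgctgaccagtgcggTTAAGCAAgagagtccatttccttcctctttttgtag
Il6: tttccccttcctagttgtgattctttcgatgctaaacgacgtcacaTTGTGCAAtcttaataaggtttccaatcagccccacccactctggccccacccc

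The stretches lie at chr11:120643798-120643897 (Pycr1, minus strand), chr8:46739581-46739680 (Irf2, plus), chr2:22895311-22895410 (Pdss1, plus), chr8:94386271-94386370 (Herpud1, plus) and chr8:88282865-88282964 (Adcy7, plus). The others lie at chr6:120357493-120357592 (Ccdc77, minus), chr6:129350058-129350157 (Clec12a, plus), chr9:7558329-7558428 (Mmp8, plus), chr1:171059395-171059494 (Fcgr3, minus) and chr5:30012940-30013039 (Il6, plus). Pycr1, an enzyme of proline synthesis, and Herpud1, a gene of the endoplasmic reticulum stress response, carried the composite motif. At Pycr1 the motif lay 8.5 bp from the mean of the 2 summits, the points of highest signal, and at Fcgr3, a receptor for antibody, 7.5 bp from it. At Clec12a, a C-type lectin of myeloid cells, it lay 91 bp away, so a match in the stretch is not always at the summit. The pileup, the number of fragments over the summit, was 232 and 129 at Pycr1 in replicates 1 and 2. It was 284 and 400 at Irf2, an interferon response factor, and 72 and 63 at Il6, a cytokine of inflammation. Replicate 1 had the higher value at Pycr1 and Il6 and the lower one at Irf2.

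How far the 2 libraries gave the same regions varied with the strength of the signal. The fold is the authors' ratio of summit signal to local background. Sorted by fold into 10 classes of equal size, 11.1% of the weakest replicate 1 regions were also called in replicate 2, against 47.0% in class 7 and 99.3% in the strongest. The share did not rise among the weakest regions: classes 2 to 4 had 8.83%, 9.30% and 7.87%. For replicate 2 the shares called in replicate 1 were 22.6% in the weakest class, 16.9% in class 2, 61.3% in class 6 and 99.0% in the strongest. In all, 39.0% of the 81206 replicate 1 regions and 55.9% of the 56638 replicate 2 regions were reproducible. Since the classes and the members use the same lists, these shares are a description.

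The reproducible regions had a median pileup of 27 fragments in each library, where the exact Poisson 95% interval of such a count runs from 17.8 to 39.3. Regions called in 1 library only had a median pileup of 8 in either. The median fold of reproducible regions was 9.12 in replicate 1 and 8.68 in replicate 2, against 3.86 and 4.21 for regions of 1 library only. The fold ran from 3.43 to 42.9 (5% to 95% of members) in replicate 1 and from 3.46 to 29.5 in replicate 2. Over the members the log2 pileup of the 2 libraries had a Pearson correlation of 0.81 (Spearman 0.77), and the log2 fold one of 0.60 (0.55). These correlations are over regions, which are not replicates, and regions share their library's depth. The fold correlated less than the pileup, and the local background differed between the libraries: 21.4% of the members in replicate 2 and 4.92% in replicate 1 had a background of at least 5 times that library's lowest. The part of the background in the difference was not tested. Read totals were not given, so sequencing depth is unknown, and the intervals cover counting error only.

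**Figure D1:**
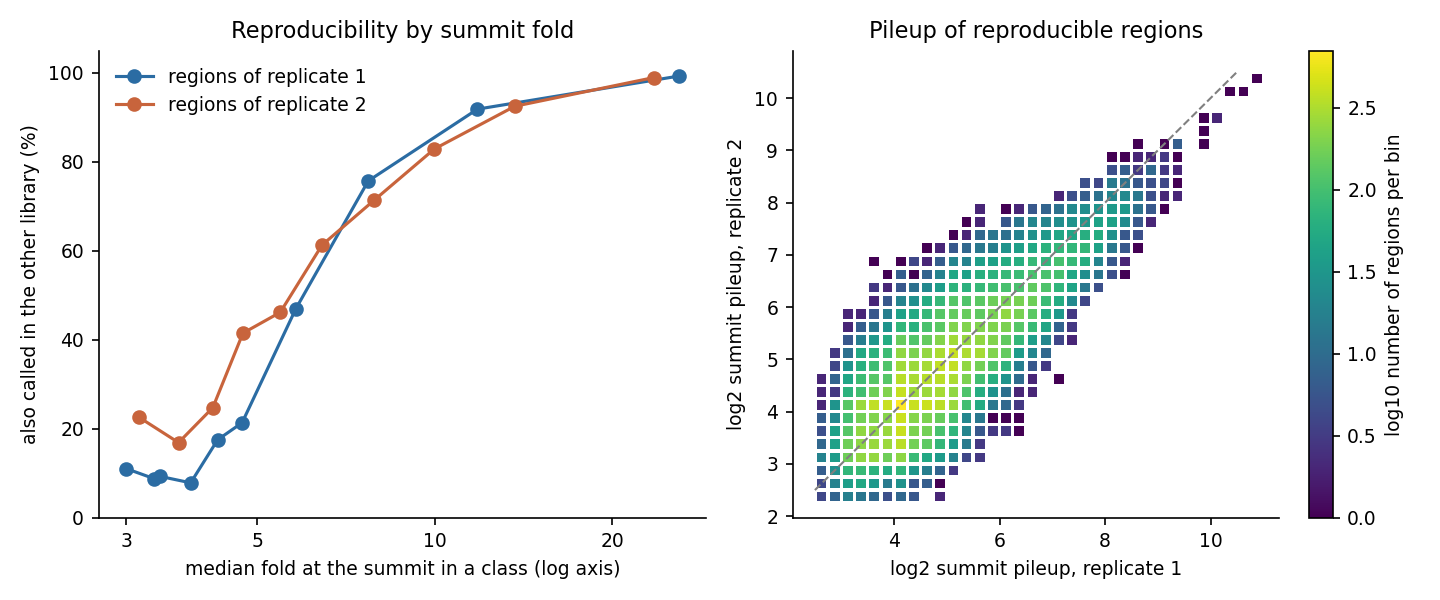
Left: the share of regions of each WT library that was also called in the other, against the median fold of each of 10 classes by fold (log axis). Right: log2 summit pileup of reproducible regions in replicates 1 and 2, with colour for the log10 number of regions per bin, bins from a log2 pileup of 11 upward left out, and a dashed line of equal values. The share was 11.1% and 22.6% in the weakest classes, dipped to 7.87% and 16.9% in classes 4 and 2, and reached 99.3% and 99.0% in the strongest.

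Summits of the 2 libraries lay close together. The median gap was 26 bp in regions of a median width of 297 bp, and 22351 members (70.6%) had summits within 50 bp. Members that only just met the overlap, the 140 with 20 bp or less in common, had a median fold of 4.29 and 4.36 in replicates 1 and 2. Just outside the rule, 254 regions of 1 library lay 20 bp or less from a region of the other, with a median fold of 4.29 for replicate 1 regions and 4.37 for replicate 2 regions. The values on either side of the rule thus hardly differed.

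Most reproducible binding lay away from the ends of genes. Of the 31649 members on placed chromosomes, 7328 (23.2%) lay no more than 1 kb from an end of a protein-coding gene, 12515 (39.5%) inside genes and 11806 (37.3%) between genes. The other 15 members were on unplaced contigs. Where the gene's strand was known, 5438 of the members at gene ends (90.8%) lay at the start and 552 at the other end. Regions of 1 library only were at gene ends in 9.68% of cases. The median distance to a gene end was 9.395 kb, and 2621 members (8.28%) lay over 100 kb from one.

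Members at gene ends had a higher pileup in replicate 2 and a lower fold in both libraries. Their median pileup was 28 in replicate 1 and 40 in replicate 2, while members inside genes had 26 and 24 and members between genes 27 and 24. The median background in replicate 2 was 4.23 times its lowest at gene ends, against 1.69 times inside and between genes. In replicate 1 it was 1.45, 1.06 and 1.05 times the lowest. The median fold at gene ends, inside genes and between them was 8.17, 9.43 and 9.43 in replicate 1 and 8.32, 8.65 and 8.94 in replicate 2. With members of low background in both libraries (under 5 times the lowest), the share at gene ends was 16.6%. The strongest members were less often at gene ends than members in general: of the 367 on placed chromosomes that stood among the first 1000 by fold in both libraries, 62 (16.9%) were at a gene end and 179 (48.8%) between genes. This contrast of shares was not tested, since regions are not replicates.

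**Figure D2:**
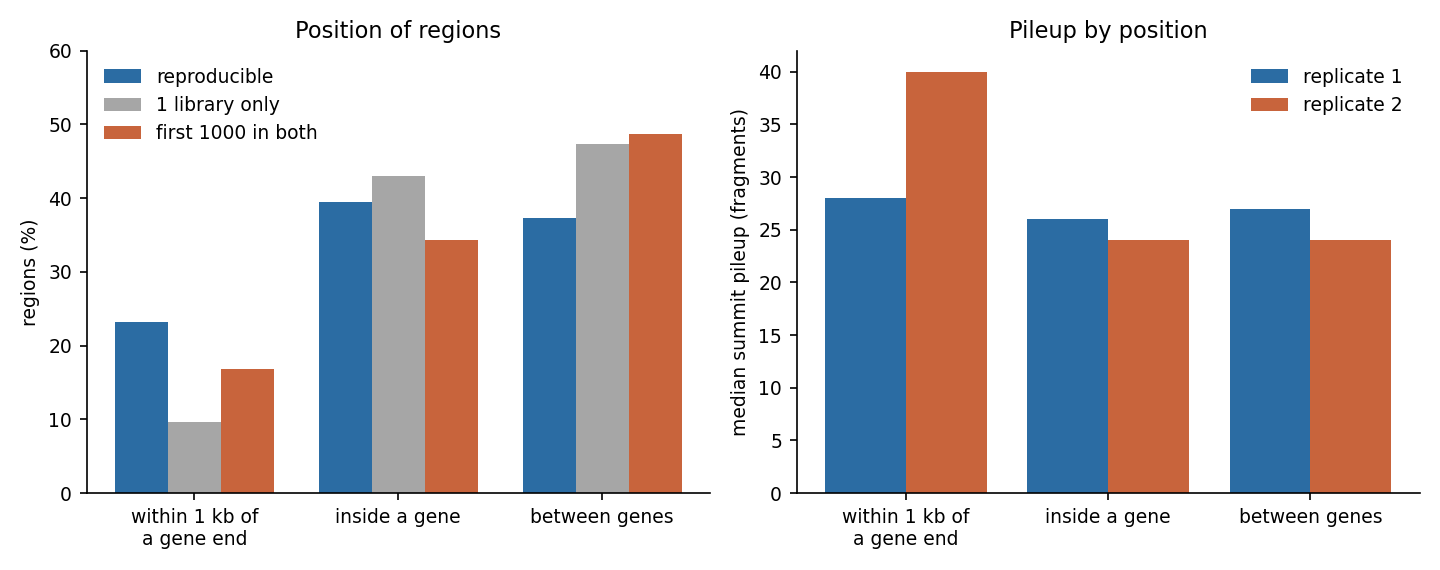
Left: the share of regions at gene ends (up to 1 kb away), inside genes or between genes, for reproducible regions, regions of 1 library only, and the 367 regions among the first 1000 by fold in both libraries. Right: the median summit pileup of reproducible regions by position in each library. Gene ends held 23.2% of reproducible regions, 9.68% of regions of 1 library only and 16.9% of the strongest, and the bar for replicate 2 is highest there, at 40 fragments.

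Members were spaced unevenly. Joining members up to 10 kb apart gave 18288 groups, of which 11541 were single members. The 841 groups of 5 or more held 5425 members (17.1%), and the largest held 20. Per protein-coding gene, chromosome 12 had the most members (1.91) and chromosome 7 the fewest of the autosomes (0.95), while the X had 0.61 and the Y 0.04.

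The regions with the best rank in both libraries lay mostly outside gene ends. Each region took the worse of its 2 ranks by fold. The first lay between genes, 4.25 kb from Ntpcr on chromosome 8, with folds of 147 and 99.8 and pileups of 342 and 202. The next had Katnal1 (132 kb), Mreg (220 kb) and Svil (14.7 kb) as the nearest genes, and all were between genes. A region inside Ssh2, a cofilin phosphatase, 73.4 kb from its nearer end, had pileups of 308 and 191. The region inside Mknk1, a kinase that phosphorylates the translation factor eIF4E, had 490 and 251. These regions are named for their high fold, and the pileups given stood far above the member median of 27 in both libraries. The rest of the first 10 lay nearest to Pdhx, Kcnj2, Arhgap12 and Ccdc180, of which only the Ccdc180 region was at a gene end.

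Among members at gene ends, those of Ccdc180 (pileups 279 and 266), Ptges (412 and 329) and Rela (290 and 272) were among the best-ranked. Ptges makes prostaglandin E2 from its precursor, and Rela is the p65 subunit of NF-κB. The other 2 lay at Ugt1a6a (317 and 151) and Ugt1a6b (276 and 139), glucuronosyltransferases of a cluster in which several first exons share their later exons, so that each region also lies inside longer genes of the cluster. Inside genes the best-ranked included Papss2, which makes the sulphate donor (393 and 206), Etv6, an ETS repressor of blood progenitors (270 and 135), and Fam217b (317 and 242). In each of these 8 regions but Fam217b the fold in replicate 2 was lower than in replicate 1; at Fam217b it was 118 and 128.

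Ranks by other measures put different regions first. By −log10 q or by pileup the first region lay 1035 kb from Lrrc4c on chromosome 2, with pileups of 471902 and 287491 but folds of 1.54 and 1.53. Its background was 230654 and 207719 times the lowest of each library. A region 116 kb from Gm2244 came next, with folds of 1.93 and 1.98. These regions are members by the overlap rule, and the ranking by fold used here puts them low.

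Genes with the most members inside them or within 10 kb were long. Pde4d, a phosphodiesterase of cyclic AMP, had 37 over 1302 kb, Gse1 31, Arhgap26 30, and Etv6 and Foxp1, a forkhead factor of haematopoiesis, 29 each. Sgms1 had 27, Maml3, a coactivator of Notch, 26, and Asap1, Cdh23 and Ptpre 21 each, against a median of 1 over all protein-coding genes. Per 100 kb of gene and flanks, Ptpre (12.5), a receptor-type tyrosine phosphatase, and Etv6 (11.4) had the most of these and Pde4d (2.80) the fewest. Within 10 kb of gene ends alone, the highest numbers were 13 at Il17ra, the receptor of interleukin-17, and 12 at Nr4a1, an orphan nuclear receptor.

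Over all 21887 protein-coding genes, 11534 had a member within 10 kb of a gene end (52.7%), and this share is the background against which each list below stands. A member this near an end is called occupation here, and it does not show that the gene is regulated. Fold and pileup of a named gene are those of its best-ranked member within 10 kb. No test was made between a list and other genes.

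All 7 genes of the C/EBP list were occupied, each within 1 kb, where the background was 32.5%. Cebpz is on the list by its symbol and is not a basic leucine zipper factor. Cebpg, which forms dimers with other C/EBP factors and with ATF4, had the best-ranked region, with pileups of 103 and 156. Ddit3, the stress-induced member CHOP, had 183 and 230 at a region that lies inside the neighbouring gene Mbd6. Cebpe, the factor of late granulocyte maturation, had 79 and 71, and Cebpz 46 and 44. Of these, Cebpg and Ddit3 were above the member median by over 3 times in both libraries.

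All 20 transcription factors of granulocytes and monocytes were occupied, with a median of 3.5 members. The median was 1 over all genes, 2 over all occupied genes and 2.5 over the housekeeping list described below. Klf2, a Krüppel-like factor of quiescence, had pileups of 499 and 459, and Spi1, the partner PU.1, 306 and 260. Id1, an inhibitor of E proteins, had 357 and 284 and Nr4a1 196 and 152. These 4 are named as the best-ranked of the list by fold, and replicate 1 had the higher pileup in each. On the same list, Irf8 (12 and 15) and Id2 (17 and 23) lay below the member median in both libraries. All 20 AP-1 and ATF factors were occupied as well, also with a median of 3.5 members. The region counted for Mafg, a small Maf protein, was the Pycr1 promoter shown above. Nfe2, a factor of megakaryocytes and myeloid progenitors, had 578 and 480, Nfe2l2, the regulator of the oxidative stress response, 175 and 147, and Atf4, the effector of the integrated stress response, 173 and 232.

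Receptors for myeloid growth factors and cytokines were occupied in 18 of 20 cases, with a median of 4.5 members. Il17ra had pileups of 322 and 254 and folds of 96.2 and 53.0. Tnfrsf1b, the second receptor of tumour necrosis factor, had 238 and 156, Csf3r, the receptor of G-CSF, 158 and 80, and Il6ra, a subunit of the interleukin-6 receptor, 186 and 193. Il6st, the signalling subunit that pairs with Il6ra, and Il13ra1 had no member within 10 kb.

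Genes of neutrophil granules were occupied in 21 of 22 cases. Ctsg, the serine protease cathepsin G, had pileups of 221 and 127. Elane, neutrophil elastase, and its neighbour Prtn3, proteinase 3, shared a region with 167 and 151 fragments. Lyz2, lysozyme, had 108 and 67. Cybb, the membrane subunit of the phagocyte oxidase, had none. Phagocyte receptors and surface antigens were occupied in 23 of 24 cases, led by Tlr2, a sensor of bacterial lipoproteins (231 and 168), Cx3cr1, the fractalkine receptor (211 and 191), the integrin Itgal (259 and 238) and Adgre1, the antigen F4/80 (145 and 118). Ly6g, an antigen of mature neutrophils, had none.

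Inflammatory cytokines and chemokines were occupied in 19 of 20 cases, although their 19 genes shared 16 best regions. Il1b had pileups of 237 and 255, and Tnf and its neighbour Lta shared a region inside Tnf with 221 and 221. Osm, oncostatin M, had 161 and 161. Csf1, which encodes the growth factor M-CSF, had no member within 10 kb. Feedback inhibitors of signalling were occupied in 19 of 20 cases, 18 of them within 1 kb. Dusp6, a phosphatase of ERK, had 260 and 214, and Nfkbia, the inhibitor of NF-κB, 109 and 130. Trib1, which promotes the breakdown of C/EBPα, had 104 and 186 and Tnfaip3, the ubiquitin-editing protein A20, 294 and 279. Trib2, which also acts on C/EBPα, had none.

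Stem and progenitor genes were occupied in 19 of 20 cases, and 11 had a member within 1 kb. Fli1, an ETS factor, had pileups of 501 and 217 with folds of 215 and 20.0. Myc had 211 and 152, Lyl1, a helix-loop-helix factor, 98 and 75, and Meis1, a homeobox factor of stem cells, 39 and 60. Erg, an ETS factor of stem cells, had none. Cell cycle genes were occupied in 18 of 20 cases, with 11 within 1 kb. The cyclins Ccnd2 and Ccnd3 had 106 and 114 and 210 and 187 fragments, E2f2, an activator of S phase genes, 171 and 160, and Cdkn1b, the inhibitor p27, 67 and 119. Cdk6 and Ccnb1 had none.

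Lists for dendritic cells stood nearer to the background of 52.7% within 10 kb. Of 18 genes of cDC1, the cells that cross-present antigen, 12 were occupied, led by Plpp1 (pileups 84 and 55), Nfil3, a factor needed for cDC1 (170 and 142), Ppt1 (72 and 55) and Ifi205 (94 and 54). Of 14 cDC2 genes 8 were occupied, led by S1pr3 (96 and 60) and Irf4 (52 and 35). Of 16 genes of plasmacytoid dendritic cells 11 were occupied, led by Il3ra, a subunit of the interleukin-3 receptor (92 and 151), and Spib, an ETS factor (57 and 31). Cd8a, Tlr3 and Cadm1 of cDC1, Clec4a4, Cd4 and Cd209a of cDC2, and Klk1, Cox6a2 and Ly6d of plasmacytoid cells had no member within 10 kb. Within 1 kb, where the background was 32.5%, the plasmacytoid list had 10 of 16 (62.5%), the cDC1 list 6 of 18 and the cDC2 list 5 of 14. All 14 cDC2 genes had one within 50 kb, where the background was 72.9%.

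Genes of other blood lineages, whose mature cells a lineage-negative gate is meant to remove, were occupied at shares from below to slightly above the background. The B lymphoid list had 9 of 15 occupied, the T and NK list 8 of 16, the erythroid and megakaryocyte list 8 of 16, and the list of mast cells, basophils and eosinophils 5 of 12. Vpreb1 and Igll1, which encode the surrogate light chain, shared a region with pileups of 173 and 108. Klf1, an erythroid factor, counted a region inside Gcdh with 268 and 188, and Hdc, which makes histamine, had 175 and 105. On the T and NK list the best-ranked, at Klrb1c, had 20 and 23, below the member median in both libraries, while Cd3g, a subunit of the T cell receptor complex, had 57 and 79, above it. Rag1 and Rag2 of the B lymphoid list, Gata3, Ncr1 and Cd3e of the T and NK list, Vwf and Hbb-bs of the erythroid and megakaryocyte list, and Fcer1a, Prg2 and Mitf of the mast cell list had none.

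Tissues outside the blood gave unequal counts. The fat list had 12 of 16 occupied, but only 3 within 1 kb. Retn, which encodes resistin, had 168 and 160 fragments, and Adipoq, which encodes adiponectin, 466 and 221. The liver list had 9 of 20 occupied, led by Hp, haptoglobin (95 and 71), and Apoa2, whose region lies inside its neighbour Fcer1g (120 and 76). Cps1, Pck1 and Tdo2 of the liver list had none. The neuron and muscle list had 5 of 20 occupied, with the best-ranked at Ckm (30 and 47). All 16 housekeeping genes were occupied, 14 within 1 kb, and among them Ppia, a prolyl isomerase, had 131 and 160 fragments. Full occupation of a list was therefore not limited to lists of granulocytes and monocytes. With only members of low background (under 5 times the lowest in both libraries), 11 of 16 housekeeping genes were occupied. The count was then 16 of 20 for granulocyte and monocyte factors, 18 of 20 for AP-1 and ATF factors and 6 of 7 for the C/EBP list. Granule genes stayed at 21 of 22 and phagocyte receptors at 23 of 24, while all protein-coding genes went from 11534 to 9210.

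**Figure D3:**
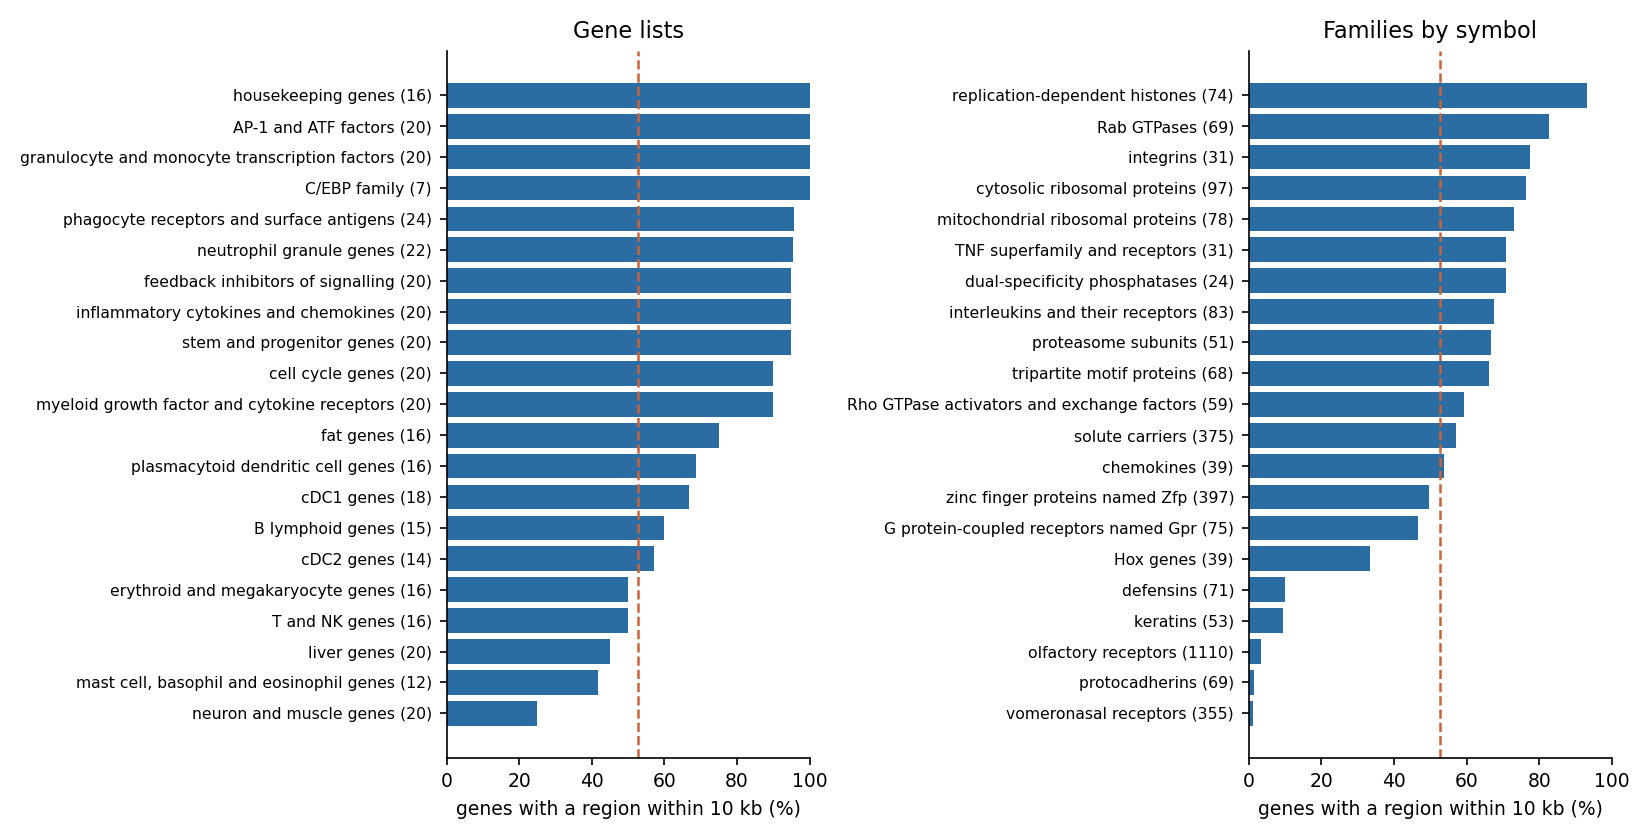
The share of genes with a reproducible region within 10 kb of a gene end, for 21 gene lists (left) and 21 families matched by symbol pattern (right), with the number of genes in brackets and a dashed line at the share over all protein-coding genes. The lists at 90% or more include granulocyte and monocyte factors, granule genes and phagocyte receptors, but also AP-1 and ATF factors, stem and progenitor, cell cycle, feedback inhibitor and housekeeping genes. The mast cell list lies at 41.7%, and receptors of smell and of the vomeronasal organ lie near 0.

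Families matched by symbol pattern, which can take in a few genes of other function, spread from 1.13% to 93.2%. Replication-dependent histones had 69 of 74 genes occupied, but these genes are clustered and the 69 had only 26 best regions between them. Rab GTPases of vesicle traffic had 57 of 69 occupied (82.6%), integrins 24 of 31 (77.4%), and cytosolic ribosomal proteins 74 of 97 (76.3%). Within 1 kb, where the background was 32.5%, Rab GTPases had 63.8% and cytosolic ribosomal proteins 54.6%, but integrins had 8 of 31 (25.8%). Interleukins and their receptors had 56 of 83 (67.5%), dual-specificity phosphatases 17 of 24 (70.8%) and chemokines 21 of 39 (53.8%). Hox genes had 13 of 39 (33.3%). Olfactory receptors had 38 of 1110 (3.42%), vomeronasal receptors 4 of 355 (1.13%) and protocadherins 1 of 69 (1.45%), and genes of these 3 families lie in clusters. These low counts moved with the call in both libraries. With replicate 2 and replicate 1 alone they were 92 and 296 for olfactory receptors and 21 and 92 for vomeronasal receptors. For protocadherins they were 29 and 35, and for Hox genes 25 and 23. The count over all 21887 protein-coding genes also rose, from 11534 to 14604 and 16157 with these libraries alone.

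Genes that make no protein were occupied to different degrees. Long non-coding RNA genes had a member within 10 kb in 36.7% of 12727 cases, tRNA genes in 56.4% of 408, pseudogenes in 15.4% of 9944 and miRNA genes in 34% of 1228. Of the miRNA genes named here, chosen after their values were seen, Mir223, a miRNA of granulocytes, had a region 2.77 kb away with pileups of 112 and 100. Mir21a had 334 and 310 at 2.63 kb and Mir34a 121 and 138 at 7.52 kb. Mir155 had a weak region, with 17 and 14. Mir142 had 5 members, while Mir146 and the liver miRNA gene Mir122 had none within 10 kb.

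Loci of key regulators showed where members lay around each gene, within 50 kb. Cebpa itself had 7. Its best-ranked lay 37.4 kb beyond the start, with pileups of 63 and 59. A member just before the start, by 0.18 kb, had higher pileups of 97 and 132 but folds of 37.1 and 6.38, and the background there was 22 times the lowest in replicate 2. The region at 7.86 kb had 22 and 24. Cebpb had 8 members, with the best-ranked 32.1 kb before the start (67 and 67), 21.9 kb beyond it (81 and 78) and 39.4 kb before it (111 and 106). At these Cebpb regions the 2 libraries had nearly equal pileups. Cebpe had 10, led by a region 42.4 kb from the gene inside Slc7a8 (76 and 74), and by a pair 4.11 kb (79 and 71) and 3.44 kb (84 and 101) from it.

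Spi1 had 8 members. The strongest, with 306 and 260 fragments, lay inside the gene, 0.52 kb from its end of lower coordinate, and one 0.97 kb outside that end had 67 and 73. The third, inside Rapsn at 39.4 kb, had 45 and 41. Gfi1, a transcriptional repressor that acts in granulocyte development, had 9. The strongest lay 23.8 kb before its start inside Evi5 (291 and 187). The next lay at 29.1 kb before the start, also in Evi5 (48 and 51), and 26.7 kb beyond the start (42 and 40). Irf8, the factor of monocytes and cDC1, had 10. Its best-ranked lay 50.0 kb before the start, with 293 and 312 fragments, then 56.6 kb beyond the start (146 and 117) and 34.3 kb before it (53 and 58). Within 10 kb of Irf8 a single weak member had 12 and 15.

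At the growth factor receptors the strongest members lay both inside the genes and in their neighbours. Csf1r, the receptor of M-CSF, had 11, the best-ranked inside the neighbour Pdgfrb at 30.6 kb (247 and 167), in Hmgxb3 at 45.8 kb (192 and 164) and at 0.08 kb from a gene end (112 and 63). Csf3r had 8, with 158 and 80 fragments 5.56 kb before the start and 181 and 109 inside the gene, 1.18 kb beyond the start. A region 44.1 kb beyond the start, inside Oscp1, had 49 and 53. Flt3 had 9, led by regions inside the gene 11.4 kb beyond the start (folds 24.99 and 41.2) and 7.70 kb beyond it (pileups 131 and 62). One inside Pan3, 26.1 kb before the start, had 38 and 28. Replicate 1 had the higher pileup at all of these 9 regions except the Oscp1 one.

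Kit and Id2 had the fewest members of the 12 loci, and those at Kit were weak. The number of members within 50 kb of other genes is not given here. Kit had 4, with pileups from 10 to 22 in replicate 1 and from 10 to 18 in replicate 2, all below the member median. The best-ranked lay 0.91 kb beyond the start (11 and 13), then 3.23 kb (19 and 10) and 120 kb (10 and 11) beyond it. Id2, an antagonist of E proteins, had 3, with 12 and 33, 16 and 18, and 17 and 23 fragments. Of these values only the 33, in replicate 2, was above the member median. Zeb2, the repressor whose enhancer the study altered, had 7, with 36 and 35 at 31.6 kb, 46 and 38 at 141 kb and 23 and 27 at 3.32 kb beyond the start. Within 10 kb of the enhancer's labelled distance before the start lay 3 members. That at 162 kb had pileups of 338 and 318 and folds of 104 and 7.56, with a background 45.7 times the lowest in replicate 2. Its pileup was over 6 times that of any Zeb2 member within 50 kb in either library. The others had 97 and 69 and 20 and 19.

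**Figure D4:**
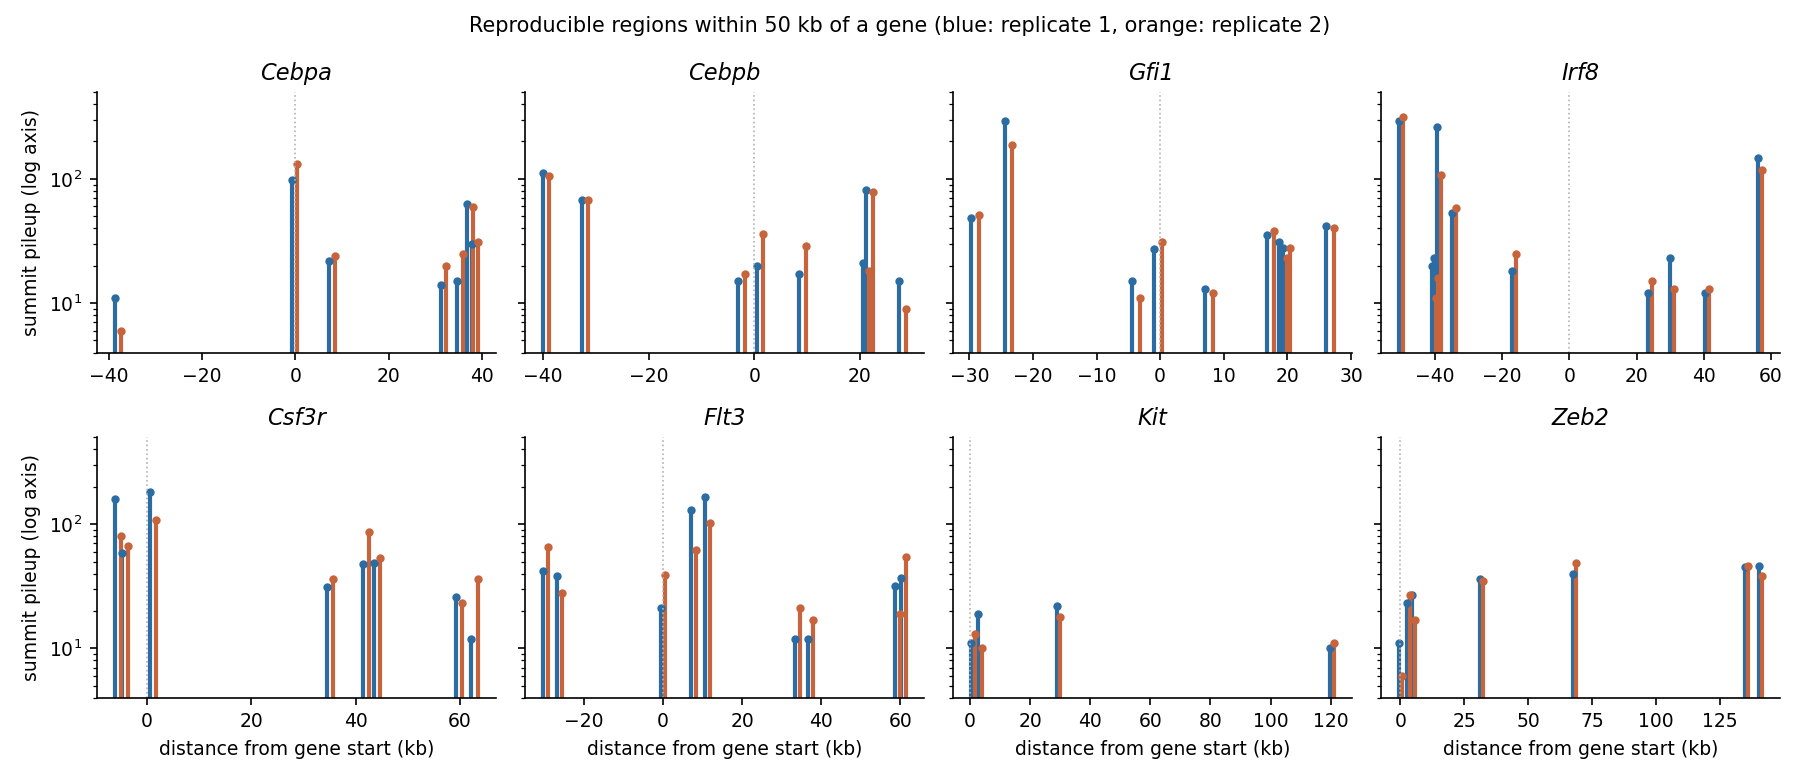
Summit pileup (log axis) of each reproducible region within 50 kb of 8 regulators whose strand is known, against the distance of its centre from the gene start in kb, positive into the gene, with a dotted line at the start. Blue is replicate 1 and orange replicate 2, drawn side by side. Regions at Irf8 and Gfi1 reach 312 and 291 fragments away from the start, while no region at Kit exceeds 22.

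Promoters were examined with the sequences of RefSeq, whose windows run from 250 bp before to 50 bp after a start. Of 21238 windows of protein-coding genes, 5688 (26.8%) overlapped a member. The windows cover 17469 genes (79.8% of all). TTGCNNAA stood in 11% of the windows with a member, in 9.86% of those without one and in 10.2% of all windows. TTGCGCAA, the full palindrome and one form of TTGCNNAA, stood in 0.633% with a member, 0.0707% without and 0.221% of all. TGATGCAA, which cannot match at the same position as TTGCNNAA, stood in 0.721%, 0.920% and 0.866%. Pooled over all windows, the shares with and without a member were thus close for TTGCNNAA, but base composition differed between them, and they are given by GC content below.

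The shares varied more with strength. The 4013 windows with both summits inside were sorted by the lower of the 2 folds into 5 classes of equal size. TTGCNNAA stood in 6.60% of the weakest class, 5.49%, 9.22% and 15.7% of the next, and 24.4% of the strongest. TTGCGCAA went from 0.249% to 2.99% and TGATGCAA from 0 of 803 windows to 2.49%. GGAAGT, the letters read by PU.1 and other ETS factors, stood in 33.7% of the weakest and 32.1% of the strongest, against 24.8% of all windows. CACGTG, an E-box, stood in 11% and 10.3%, against 7.84% of all. TATAAA stood in 6.60% and 7.60%, against 12.6% of all. CCAAT, a common promoter motif, stood in 44.0% of the weakest and 58.0% of the strongest, against 38.2% of all, so the C/EBP letters were not the only ones that differed.

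Base composition moved with the presence of a member. Windows with a member had a median GC content of 61.3% and those without 54.0%, with 22 and 8 CpG. At GC up to 50%, TTGCNNAA stood in 24.2% of the windows with a member and 15.4% of those without. From 50 to 60% GC these shares were 14.5% and 9.47%, and over 60% GC they were 6.44% and 3.61%, so windows with a member held it more often at each level. Among bound windows GC was 62.3% in the weakest class and 59.3% in the strongest. Within windows of GC up to 50%, which were few, TTGCNNAA stood in 16.1% of the weakest (9 of 56) and 32.5% of the strongest class (37 of 114). From 50 to 60% GC the shares were 8.84% and 27.5%, and over 60% GC they were 4.42% and 18.9%. The strongest class was therefore higher at each level of GC. With 1 window kept per member the shares of the weakest and the strongest class were 6.40% and 25.2%.

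In the stronger 50% of these windows (lower fold above 5.98), TTGCNNAA matches were denser near the summit. Of 391 matches, 132 (33.8%) lay within 25 bp of the mean summit, 32 between 75 and 100 bp, a ratio of 4.12, and 67 farther off. In the weaker 50% there were 143 matches, with 40 and 13 at these distances, a ratio of 3.08. In the stronger windows the ratio was 1.26 for GGAAGT (169 and 134), 0.814 for CAGCTG, an E-box with another centre (48 and 59), and 2.11 for CCAAT (550 and 261). It was 1.78 for the E-box CACGTG (64 and 36) and 2.25 for TTNCNNAA, a looser form of TTGCNNAA (317 and 141). Of other motifs searched, TGANTCA had 2.70 (27 and 10), TGTGGT 1.17 (49 and 42), AGATAA 0.786 (11 and 14) and TATAAA 0.391 (9 and 23). Of 33 matches to TGATGCAA, 19 lay within 25 bp. Windows are 300 bp long, so fewer bases lie far from a summit than near it, which the other motifs share. A match is a description and not a site, and no genome sequence was used here for regions outside these windows.

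**Figure D5:**
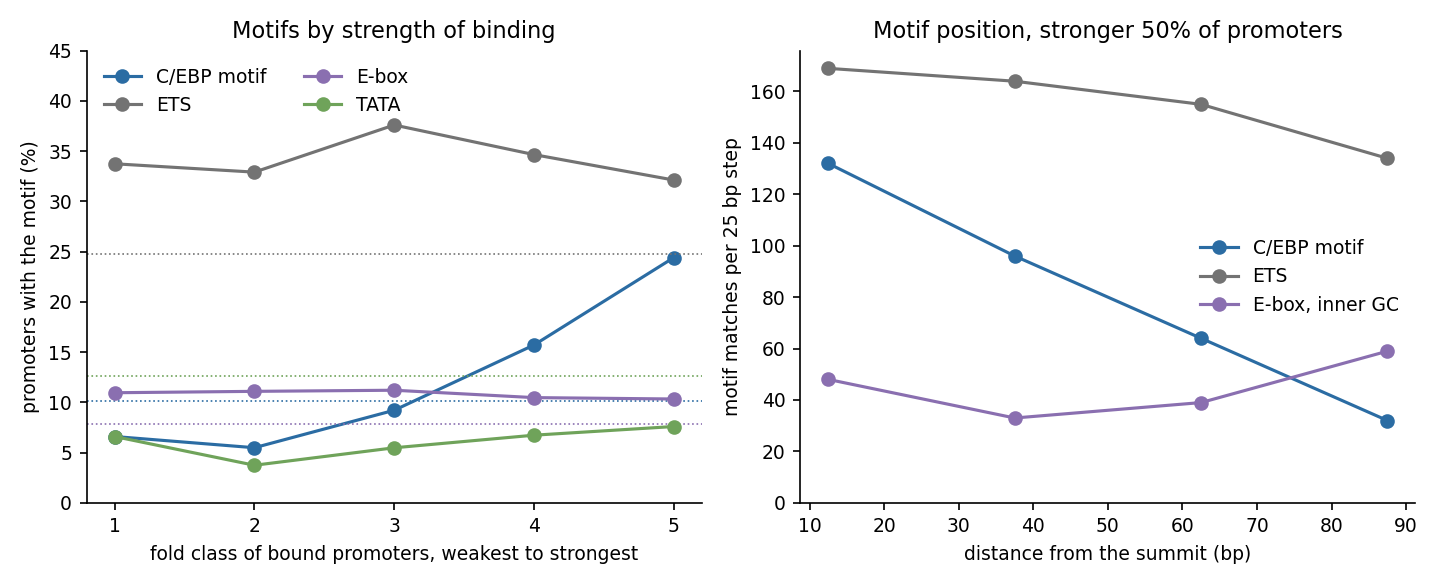
Left: the share of promoter windows with each motif by class of fold, with dotted lines for the share over all windows in the same colour. Right: matches per 25 bp step from the summit in the stronger 50% of windows. The C/EBP motif is TTGCNNAA, ETS is GGAAGT, the E-box is CACGTG on the left and CAGCTG on the right, and TATA is TATAAA. The C/EBP line climbs from 6.60% to 24.4% on the left and falls from 132 matches at the summit to 32 on the right. CACGTG, not drawn on the right, had 64 and 36 matches in these steps.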

How the data were processed

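CUT&RUN peak lists of the 2 WT anti-C/EBPα libraries were used. The submitters' processing notes name MACS2 2.2.9.1, HOMER, Bowtie2, Trimmomatic and SAMtools, and build mm10. Their roles, and whether IgG served as control, are not given in the sources used here. The deposited fold of a peak is a ratio of summit signal to local background. The authors give with it a −log10 p-value, a −log10 q-value (every q under 0.1), and a deposited score, which is that −log10 q multiplied by 10 and cut to a whole number.

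The pileup k and background λ were recovered from fold = (k + 1)/(λ + 1) and a Poisson tail. A whole k fitted 99.99% of peaks in both lists, at a misfit of up to 5% of the step to the next k; recovery was tested on simulated data. The lowest background was 1.33 in replicate 1 and 0.902 in replicate 2. Gene ends and promoter sequences came from RefSeq tables (GRCm38.p6). The gene table gives no strand for some genes (Spi1, Cebpe and Csf1r among them), so ends rather than starts were used. Motifs were searched on both strands. Analyses used Python 3.11.15, numpy 2.4.6, pandas 2.3.3 and scipy 1.17.1. Coordinates are 1-based.

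Named regions and genes follow a rule: the 10 best by the worse of 2 fold ranks, 5 per position class, the 10 genes with most members, up to 4 occupied and 3 unoccupied genes per list, and 12 loci. The members, the 21 lists (369 genes, of which 3 stand on 2 lists) and the families were chosen with earlier results of these data known. No test was made. Some genes that the rule names are not reported here.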

Additional observations from a re-analysis of the deposited data

How the results depend on the processing

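No paired analysis was possible because only 1 group is described and no result comes from a test. With each library alone in turn, 56638 to 81206 regions were counted, the share at gene ends ran from 12.7% to 20.4%, that inside genes from 40.7% to 41.9%, and that between genes from 38.9% to 45.4%. Members of low background (under 5 times the lowest) lay at gene ends in 16.6% of cases and inside genes in 42.8%. Overlap by 50% of the shorter peak, summits within 100 bp and q under 0.01 kept the number of members within 1.5 times.

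Counts of occupied genes moved with distance and with the call in both libraries; families with few occupied genes moved most with 1 library alone (olfactory receptors 92 to 296, vomeronasal receptors 21 to 92, protocadherins 29 to 35). Within 1 kb they were 7103 of all genes, 11 of stem and progenitor, 11 of cell cycle, 6 of cDC1, 5 of cDC2, 3 of B lymphoid, 2 of T and NK, 3 of erythroid and megakaryocyte, 1 of mast cell, 4 of liver, 3 of fat, and 1 of neuron and muscle genes. Within 50 kb they were 15949 of all 21887 genes (72.9%), 14 of 14 cDC2 genes and 15 of 16 T and NK genes. At this distance they were also 13 of 16 erythroid and megakaryocyte, 9 of 12 mast cell, and 14 of 20 neuron and muscle genes. With 1 library alone the counts ran from 14604 to 16157 of all genes. They were then 13 to 14 of 15 B lymphoid, 12 to 13 of 16 T and NK and 7 to 9 of 12 mast cell genes. For liver they were 10 to 16 of 20, and for neuron and muscle genes 7 to 12 of 20.

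Of the 100 best members by fold, 46 were among the 100 best by −log10 q, 16 by pileup, and from 40 to 45 with 1 library alone. With 1 library alone TTGCNNAA stood in 9.46% to 11.2% of windows, TTGCGCAA in 0.466% to 0.596% and TGATGCAA in 0.667% to 0.709%. With both summits inside the shares were 12.3%, 0.797% and 0.922%, and TGATGCAA stood in 0.755% with q under 0.01. The background limit for gene lists, the GC classes, 1 window per gene or member and the motifs CCAAT and TTNCNNAA were chosen after seeing the data. Depth is unknown, so a region missing from a list may be below detection, and near 10 fragments counting error spans 4.80 to 18.4.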

Other observations

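Among the windows with a member that were searched for motifs chosen after seeing the data, the looser letters TTNCNNAA stood in 27.3% of the weakest class by fold and 54.3% of the strongest, against 37.3% of all windows. Pseudogenes and V segments had a member within 10 kb in 15.4% and 16.5% of cases, and snoRNA genes in 21.5%.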
